A study of Mus musculus with 10 samples.

Results

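Cxcl1, Cxcl12, Myc and Atf3 were measured in M-1 cells, an immortalised mouse line from the cortical collecting duct of the kidney, after a short exposure to the synthetic glucocorticoid dexamethasone. The set consists of every clone whose only gene symbol in the platform annotation is one of these 4 names, which gave 5 of the 15600 clones on the array and 10 of its 31200 spots. Each clone was spotted as 2 neighbouring spots, and Myc alone was represented by 2 clones. The question put to these genes was whether they show the repression that glucocorticoids are known for.

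Cxcl1 is a chemokine that attracts neutrophils, and Cxcl12 is a chemokine that guides cells bearing its receptor Cxcr4. Myc is a transcription factor of growth and the cell cycle, and Atf3 is a transcription factor of the stress response. Cxcl1, Myc and Atf3 are switched on within minutes to hours of a stimulus, Cxcl1 largely through NF-kB. The steroid-bound glucocorticoid receptor interferes with NF-kB and AP-1 at many inflammatory genes, and it lowers Myc in several cell types.

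Treated cells received 100 nM water-soluble dexamethasone and control cells steroid-free medium, both for 3 h. All had first been kept for 24 to 36 h in medium with charcoal-stripped serum, and all were at passages 34 to 36. No inflammatory stimulus is named in the labels. Control RNA was hybridised in 5 Cy3 and 2 Cy5 channels and treated RNA in 3 Cy5 channels. These made 3 pairs with dexamethasone RNA in Cy5 against control RNA in Cy3 (arrays 3, 4 and 5) and 2 pairs with control RNA in both dyes. Dyes were never exchanged, so dye and treatment cannot be told apart within a treated array, nor treatment and array set between the pairs. Of the 7 channels whose title says control, 5 carry dexamethasone in the treatment field, a contradiction in the labels. Groups and directions follow the titles.

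Promoter stretches of the chemokines are shown because NF-kB sites are the usual target of glucocorticoid repression there. They are the 120 bases before the transcription start in RefSeq, build GRCm38.p6, plus strand, at chr5:90891125-90891244 for Cxcl1 and chr6:117168415-117168534 for Cxcl12. Capitals mark matches on either strand to a loose form of the NF-kB site, GGG and CC with any 5 bases between.
Cxcl1: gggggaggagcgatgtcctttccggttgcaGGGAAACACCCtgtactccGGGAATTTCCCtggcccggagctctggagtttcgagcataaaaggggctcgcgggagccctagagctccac
Cxcl12: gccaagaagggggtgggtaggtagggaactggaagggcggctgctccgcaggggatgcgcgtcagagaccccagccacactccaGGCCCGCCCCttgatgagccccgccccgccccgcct

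The Cxcl1 stretch held 2 such blocks, from 90 to 80 and from 71 to 61 bases upstream of the start, each read as a match on both strands. Cxcl12 held 1 match, from 36 to 27 bases upstream. Atf3 had none in its nearest 120 bases and a block that began 210 bases upstream. These letters are common, since 50.8% of the 32851 mouse promoter windows of 300 bases carry a match. Other motifs were not found in the windows of Cxcl1, Cxcl12 or Atf3 on either strand. These were the AP-1 site TGANTCA, which 7.81% of all windows hold, and the cyclic AMP response element TGACGTCA, which 1.79% hold. The palindromic glucocorticoid receptor element, held by 0.475%, was not matched either, nor was the E-box CACGTG bound by Myc, held by 7.15%. The TATA box, searched as TATAAA and held by 13.6%, was also without a match. An unmatched motif says only that those letters are not in these windows.

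The control pairs listed 99.2% and 99.4% of all spots, whereas the treated arrays listed 12.1% to 12.8%. On each treated array no listed Cy5/Cy3 ratio falls within a band about the middle, so only spots with outlying ratios are present. The rule that kept them is not given in the sources used here. A member without a value there lay inside the band or had no usable spot. Of 30 possible member values on the treated arrays 9 were listed, from 6 of the 10 spots. Array 4 listed no member spot, so every treated value below comes from arrays 3 and 5. If usable, a member spot on array 4 lay inside its band. The lower edge there ran from -0.61 to -0.52 (log2) and the upper edge from 0.52 to 0.63, by intensity. Ratios are given as log2 Cy5/Cy3 after centring each array. Only ratios beyond the band are listed, so where a clone is listed on the same side of every array its treated mean is enlarged, its SD narrowed and its p lowered. The listing also keeps treated ratios clear of control ratios. Among clones listed higher on at least 2 treated arrays and lower on none, 91.3% had every treated clone mean above both control pairs, and among those listed lower in the same way 87.8% had every one below. Among clones listed lower on 1 array and higher on none the share was 94.3%. Separation of a member from its control pairs is therefore a description here and no sign of a response. Nothing in the labels says that replicates came from separate cultures, so a p-value covers the spread between these hybridisations and no more, and that spread may be technical.

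**Figure D1:**
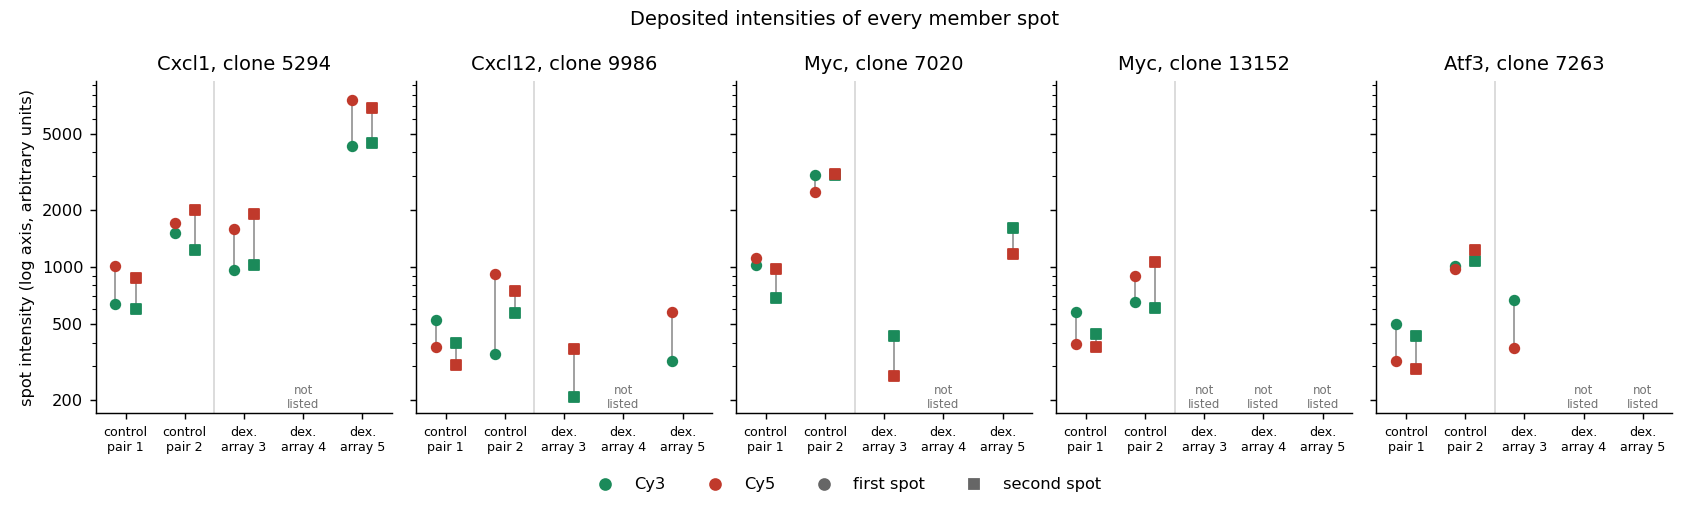
Intensity of each member spot in both channels (log axis), Cy3 in green and Cy5 in red, by pair, with a line joining the channels of a spot. Cxcl1 reads higher in Cy5 in every listed pair, control pairs included, while the second spot of Myc clone 7020 turns from higher or equal Cy5 in the control pairs to lower Cy5 on arrays 3 and 5.

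Cxcl1 was the best measured member, and it was listed on the higher side, opposite to repression, with a difference from the control pairs that did not pass the test. On array 3 the first and second spots of clone 5294 read 1584 and 1898 with dexamethasone against 966 and 1022 in the control channel. On array 5 they read 7505 and 6836 against 4328 and 4461. All 4 spot readings were thus brighter in the dexamethasone channel.

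The control pairs, in which both channels hold control RNA, showed much of the same ratio. The first spot read 1013 in Cy5 against 640 in Cy3 in control pair 1 and 1710 against 1509 in control pair 2. The second spot read 873 against 604 and 1988 against 1228. Cy5 was therefore brighter than Cy3 in all 8 spot readings of Cxcl1, whether or not dexamethasone was present.

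After centring, the Cxcl1 spots stood at 0.71 and 0.89 on array 3 and at 0.82 and 0.64 on array 5. They stood at 0.64 and 0.58 in control pair 1 and at 0.19 and 0.69 in control pair 2. Spot values of treated and control pairs overlap. The clone means do not overlap, as for 91.3% of clones so listed, with 0.80 and 0.73 on the treated arrays against 0.61 and 0.44 in the control pairs.

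The mean Cxcl1 ratio was 0.76 ± 0.05 (SD, log2, n = 2) in the treated pairs and 0.52 ± 0.12 (SD, log2, n = 2) in the control pairs. By limma the pairs differed by 0.24 (standard error 0.20, adjusted p = 0.537), or 1.18-fold, which did not pass. The value was 0.15 without control replicate 2, 0.76 with the treated pairs set against 0, and -0.23 with each array centred on its median, where the median over all fitted clones was -0.23 too. With control RNA in both dyes the excess of Cy5 over Cy3 for Cxcl1 was 0.52 by limma (standard error 0.19, unadjusted p = 0.00509, adjusted p = 0.254). It did not pass, where 0.321% of the 15561 clones passed and 3.63% had an unadjusted p under 0.05 with Cy5 higher. Within the control pairs 3 of the 4 Cxcl1 readings, at percentiles 98.8, 97.2 and 98.2, ranked near the top of the 500 spots closest in intensity. The fourth ranked at 68.8. For comparison, the treated arrays list 6.17% to 6.53% of all spots on the higher side.

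Cxcl1 was also brighter in both dyes on the treated arrays. Relative to the median of the 213 clones with a value in all 5 pairs, its control Cy3 channel read 1.28 and 2.47 (log2) on arrays 3 and 5 against 0.41 and 0.68 in the control pairs. Its Cy5 channel read 2.19 and 3.14 with dexamethasone against 1.60 and 0.81 without. The shift between array sets was 1.33 in Cy3, where both sets hold control RNA, and 1.46 in Cy5. A comparison of Cy5 channels alone therefore gave Cxcl1 a limma difference of 1.46 with an adjusted p of 0.314, most of which was matched in the control channel.

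**Figure D2:**
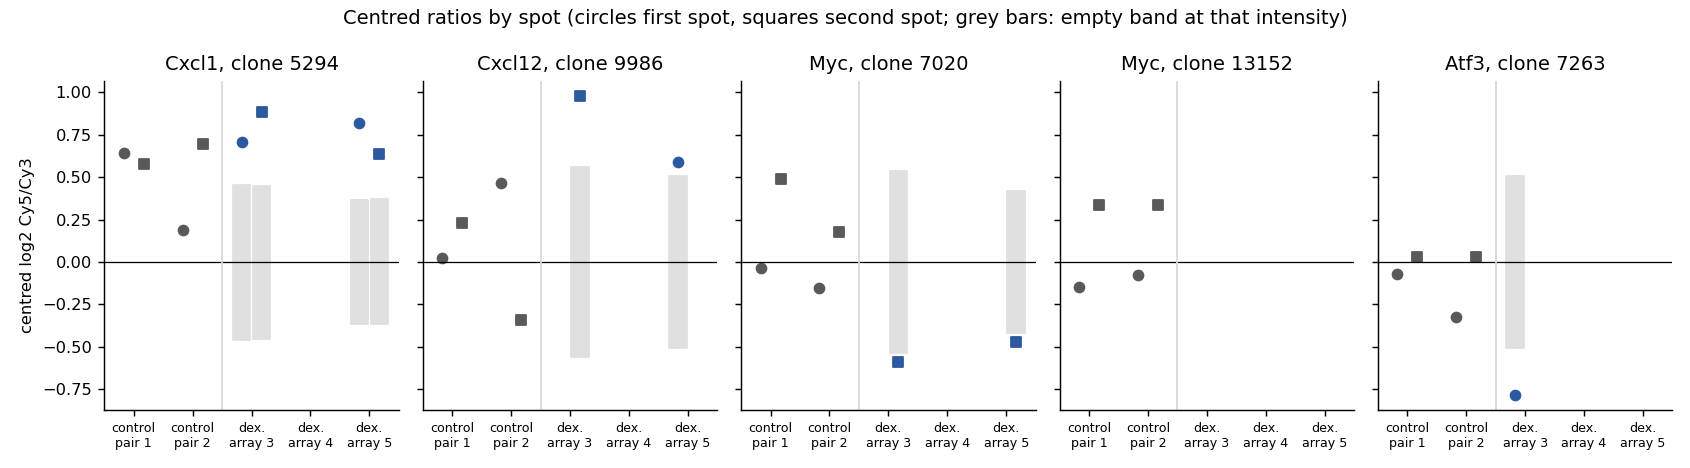
Centred log2 Cy5/Cy3 ratio of each member spot by pair, circles for the first spot and squares for the second, with the empty band of the treated arrays at that spot's intensity as a grey bar. Treated Cxcl1 ratios sit close to those of the control pairs, Cxcl12 sits above and Myc clone 7020 and Atf3 below their own control pairs.

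Cxcl12 also stood higher on the treated arrays, from different spots of its clone 9986. Array 3 listed only the second spot, at 368 with dexamethasone against 208 in the control channel. Array 5 listed only the first spot, at 581 against 319. In the control pairs the first spot read 378 in Cy5 against 526 in Cy3 and 913 against 347, and the second read 305 against 398 and 746 against 574. Neither spot was high on both treated arrays, and the control readings went either way.

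The centred ratios of Cxcl12 were 0.98 on array 3 and 0.59 on array 5. Its control spots stood at 0.02 and 0.23 in pair 1 and at 0.47 and -0.34 in pair 2. Treated and control values did not overlap, the common case for clones so listed, and the spots of control pair 2 lay further apart than the median gap of 0.25 between the spots of a clone there. The array 5 value was 0.08 beyond the edge of the band, and the array 3 value 0.42 beyond it. If the unlisted partner spots were usable and about as bright, their ratios lay between -0.56 and 0.56 on array 3 and between -0.50 and 0.51 on array 5.

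The treated mean of Cxcl12 was 0.78 ± 0.27 (SD, log2, n = 2) against 0.09 ± 0.05 (SD, log2, n = 2). By limma the difference was 0.69, or 1.61-fold (standard error 0.24, unadjusted p = 0.0457, adjusted p = 0.191). It did not pass, and it was 0.15 with median centring. Channel by channel, each treated value rests on the single listed spot and each control value on the mean of both spots. In control pair 2 those spots read 347 and 574 in Cy3, so a change of spot alone can move a channel value. Which channel carried the higher ratio was not tested. Relative to the clones valued in all pairs, Cy3 was lower on arrays 3 and 5 (-0.98 and -1.31, log2) than in the control pairs (-0.03 and -0.93), while Cy5 read -0.05 and -0.49 with dexamethasone and 0.13 and -0.35 without. With Cy5 channels alone the difference turned to -0.15 (limma adjusted p = 0.884).

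**Figure D3:**
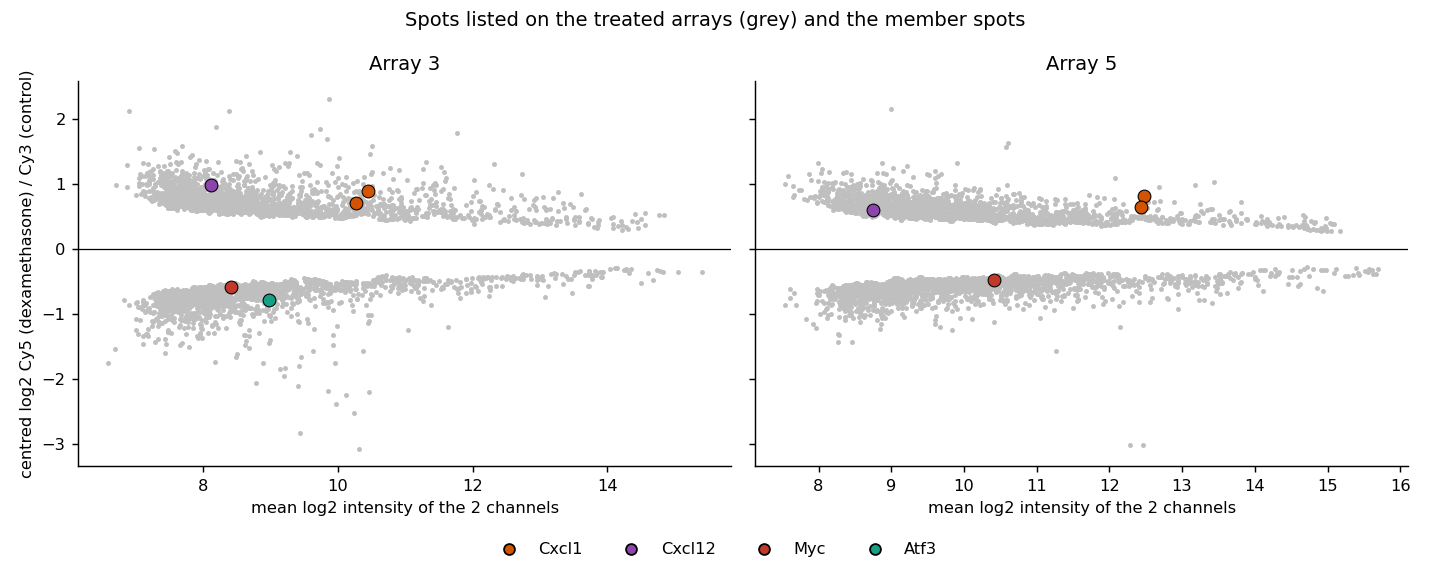
Centred log2 ratio against mean log2 intensity for all spots listed on arrays 3 and 5 (grey), with member spots coloured. Cxcl1 lies clear of the band's upper edge, Myc lies against the lower edge on both arrays, and Cxcl12 lies near the upper edge on array 5.

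Myc was the member with a lower ratio on both arrays, again from 1 spot. The second spot of clone 7020 read 266 with dexamethasone against 435 in the control channel on array 3, and 1171 against 1593 on array 5. With control RNA in both dyes that spot read 980 in Cy5 against 684 in Cy3 and 3090 against 3041. The first spot, with no value on the treated arrays, read 1115 against 1023 and 2481 against 3041.

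Centred, the listed spot stood at -0.59 on array 3 and -0.47 on array 5, against 0.49 and 0.18 in the control pairs. The first spot stood at -0.03 and -0.15 in the control pairs. The treated values lay below the control values of both spots, as clone means did for 87.8% of clones so listed. Relative to the lower edge of the band they lay at -0.055 and -0.056, close to the smallest ratios that could be listed at that intensity. If the first spot was usable and about as bright, its ratio lay between -0.54 and 0.54 on array 3 and between -0.42 and 0.42 on array 5, so its lower bounds lie near the listed values.

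The treated mean of Myc clone 7020 was -0.53 ± 0.08 (SD, log2, n = 2) against 0.12 ± 0.15 (SD, log2, n = 2). By limma the difference was -0.65 (standard error 0.21, unadjusted p = 0.0377, adjusted p = 0.189), with the control ratio 1.57-fold that of the treated pairs. It did not pass, and it was -1.13 with median centring. Against the control ratio of the listed spot alone, a comparison chosen after the values were seen, the difference was -0.87 with a limma adjusted p of 0.208. Treated channel values of Myc come from the second spot alone, control values from the mean of both spots. So read, the Cy5 channel of Myc differed more between array sets than its control channel. Its Cy5 intensity, scaled as above, was -0.51 and 0.52 (log2) with dexamethasone against 1.75 and 1.39 without, with no overlap. Its Cy3 intensity was 0.09 and 1.01 on the treated arrays against 0.84 and 1.84 in the control pairs, which overlap. With Cy5 channels alone the Myc difference was -1.57 (limma adjusted p = 0.295), of which -0.79 was also present between the Cy3 control channels.

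The other Myc clone, 13152, had no spot listed on any treated array, as had 48.2% of all clones, so it gives no treated value for or against clone 7020. With control RNA its first spot read 391 in Cy5 against 578 in Cy3 and 892 against 650. Its second spot read 378 against 444 and 1063 against 609. The centred ratios were -0.15 and 0.34 in pair 1 and -0.08 and 0.34 in pair 2, with the second spot higher each time. Its mean was 0.11 ± 0.03 (SD, log2, n = 2). Centring places most clones near 0 in these pairs, so this says nothing of how the clones of Myc compare.

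Atf3 had a single treated value. The first spot of clone 7263 read 375 with dexamethasone against 670 in the control channel on array 3, a centred ratio of -0.78, at -0.28 relative to the edge of the band. The control spots read 320 and 291 in Cy5 against 502 and 434 in Cy3, and 980 and 1222 against 1015 and 1069. Centred, these control readings were -0.07, 0.03, -0.32 and 0.03. The array 3 value lay below all 4 of them, as is usual for such listings, and with 1 array there is no replicate check. With clones on any treated array admitted (8056 fitted), where a lone value is assumed to vary like the others, Atf3 differed by -0.70 in limma (standard error 0.29, unadjusted p = 0.0547, adjusted p = 0.157) and did not pass. The second spot was not listed, and if usable and about as bright its ratio was above -0.50. The control Cy3 channel of Atf3 read 0.71 on array 3 against 0.00 and 0.29 in the control pairs (scaled log2), while Cy5 read -0.02 against -0.03 and 0.05. The array 3 values come from the first spot alone and the control values from the mean of both spots. Which channel carried the low ratio of Atf3 was not tested.

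The members' listings were set against those of all clones. Cxcl1 and Cxcl12 were listed higher on at least 2 treated arrays and lower on none, as were 4.21% of the 15600 clones. Myc clone 7020 was listed lower on at least 2 and higher on none, as were 4.2%. Atf3 was listed lower on 1 array and higher on none, as were 18.2%. Cxcl1 met a narrower rule, with both spots listed higher on at least 2 treated arrays, which 40 clones met (0.256%). That rule was counted on the higher side alone. With control RNA in both dyes, Cxcl1 readings of 0.64, 0.58 and 0.69 already exceeded the band's upper edges at its treated spots. Those edges ran from 0.37 to 0.45, and the remaining control reading was 0.19. The edges belong to other arrays and partly to brighter spots, so whether the control readings would have been listed there was not tested. Meeting the rule is a description only, and a response was not tested by it. The treated arrays listed only 1 of the 2 spots for 86.5% to 88.3% of the clones they listed at all, which is the case for every treated value of Cxcl12, Myc and Atf3.

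In the limma fit across the 2131 clones with both control pairs and at least 2 treated arrays, 0 clones passed an adjusted p of 0.05 (0%). Unadjusted, 287 clones (13.5%) lay under 0.05 on the higher side and 266 (12.5%) on the lower. Cxcl12 and Myc are among those, and a share that high over all clones means their unadjusted p says little. Of the 3 member clones fitted, Cxcl12 and Cxcl1 were higher and Myc lower, against a median difference of 0.02 over all fitted clones. No member passed in any setting of this comparison, with limma adjusted p from 0.0999 to 0.984.

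Immediate-early genes were listed in both directions. Of 43 on the list, 19 had a named clone, Myc and Atf3 included. Of these 8 were listed lower only (42.1%, against 22.6% of all 7142 named genes), 5 higher only (26.3%, against 24.9%), 2 both ways and 4 not at all. Without Myc and Atf3 the counts were 6 lower only (35.3%) and 5 higher only (29.4%) of 17, with 16 spots higher and 13 lower. Listed lower on at least 2 arrays and higher on none were 3 genes, where 5.32% of all genes are: Myc, Zfp36l1, an RNA-binding protein that destabilises AU-rich mRNAs, and Fosl2, a Fos-related AP-1 subunit.

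Fosl2 stood at -0.64 on array 4 and -0.44 on array 5 against 0.18 and 0.21 in the control pairs, a limma difference of -0.74 with a standard error of 0.20 (adjusted p = 0.186). Zfp36l1 stood at -0.65 and -0.54 on the same arrays against -0.05 and 0.09, a difference of -0.61 with a standard error of 0.20 (limma adjusted p = 0.190). Neither passed. The AP-1 subunits were not listed to one side. Fos and Jun were each listed lower once, Fos at -0.84 on array 4 against 0.20 and 0.53, and Jun at -0.86 on array 5 against 0.34 and 0.27. Fosl1, another Fos-related subunit, was listed higher with both spots on array 4, at 0.82 against 0.21 and -0.25. Ier3 and Mcl1, which act on cell survival, stood at -0.61 and -0.62 on array 3. Another Mcl1 clone, 7245, had no spot listed on any treated array. On the higher side Btg2 was listed with both spots on array 3, at 0.74 against 0.23 and 0.22. Id3 was listed higher on array 4, at 0.59 against 0.03 and 0.15. The genes listed both ways were Klf4 and Btg1. Clone 4702 of Klf4 stood at 1.51 on array 3 and -0.53 on array 5, and clone 339 at -0.62 on array 4. Btg1 stood at 0.95 on array 3 and -0.38 on array 5.

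Higher on at least 2 arrays and lower on none were Id2, an inhibitor of helix-loop-helix factors, and Klf6, a zinc finger factor, where 5.56% of all genes are. Clone 10643 of Id2 read 0.48, 0.71 and 0.49 on arrays 3, 4 and 5 against 0.59 and 0.30 in the control pairs. It overlapped its control pairs, as Cxcl1 spots did. Another Id2 clone, 11580, was listed with both spots on array 3, at 0.76 against 0.56 and 0.41. Klf6 met the rule through different clones on 1 array each, clone 8566 at 0.61 on array 3 and clone 15301 at 0.59 on array 4, the latter between its control values of 0.64 and 0.12. The 6 immediate-early clones in the limma fit had a median difference of -0.25, or 0.11 without Myc, and 0 passed. At an unadjusted limma p under 0.05, 3 were lower and 0 higher, or 2 lower of 5 without Myc. Over all fitted clones 12.5% were lower and 13.5% higher at that mark, and the listing lowers p.

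Among 30 chemokines and cytokines 6 had a named clone. Cxcl1 and Cxcl12 were the ones listed higher only (33.3%, against 24.9% of all genes). The macrophage growth factor Csf1 was listed lower only (16.7%, against 22.6%), at -0.63 on array 5 against 0.27 and -0.41. Lif, Mif and Il18 had no listed spot. Cxcr4 and Ackr3, the receptors of Cxcl12, had no listed spot either. Between control channels Cxcr4 stood at -0.54 and -0.12 and Ackr3 at 0.03 and -0.94. A response of the receptor side was thus not measured.

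**Figure D4:**
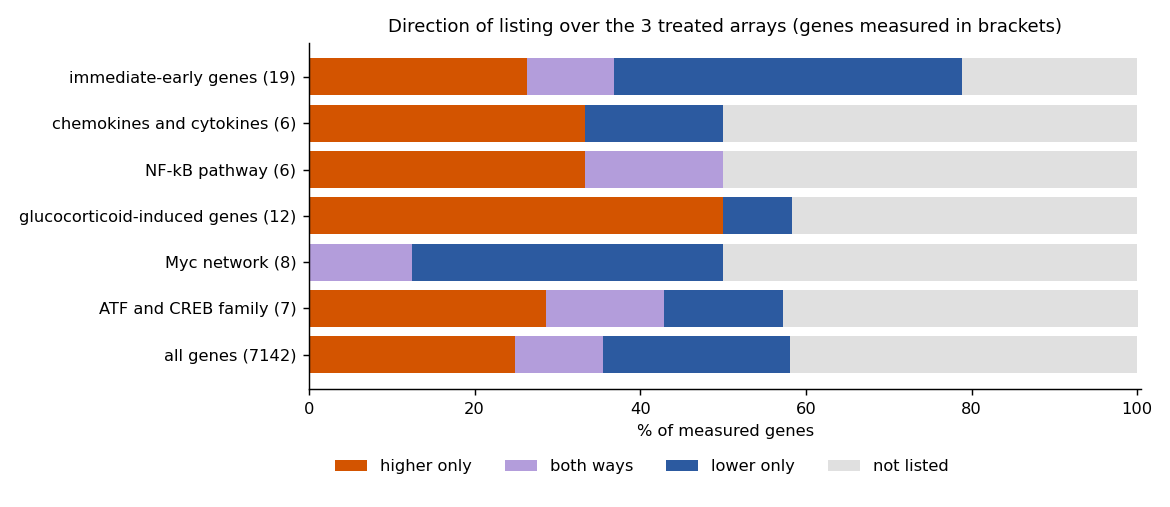
Share of measured genes listed higher only, lower only, both ways or not at all over the treated arrays, for each gene list and for all 7142 named genes. Immediate-early genes hold 42.1% lower only and glucocorticoid-induced genes 50% higher only, against 22.6% and 24.9% over all genes.

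Around Myc, 8 genes of its network were measured. Myc, Ruvbl1 and Trrap, the latter pair being chromatin cofactors of Myc, were listed lower only (37.5%, or 28.6% without Myc, against 22.6% of all genes), Mlx both ways, and none higher only. Trrap stood at -0.79 on array 3 and Ruvbl1 at -0.47 on array 5, each on 1 array. Of 7 measured ATF and CREB genes Atf3 was the 1 listed lower only (14.3%, against 22.6% of all genes). Atf6 and Creb3l2 were listed higher only (28.6%, against 24.9%), and Creb3 both ways.

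Of 6 measured genes of the NF-kB pathway, Nfkbia and Tnip1 were listed higher only (33.3%, against 24.9% of all genes), Ikbkb both ways and 3 not at all. Nfkbia, the inhibitor that holds NF-kB in the cytoplasm and a known glucocorticoid target, stood at 0.86 and 0.56 on arrays 3 and 5, the arrays that list Cxcl1, against -0.19 and -0.41 in the control pairs. By limma it differed by 1.02 (standard error 0.23, adjusted p = 0.186). Tnip1, which limits NF-kB signalling, stood at 0.86 and 0.97 on arrays 3 and 4 against 0.06 and 0.11, a difference of 0.83 with a standard error of 0.20 (limma adjusted p = 0.186). Neither passed. Of 12 measured glucocorticoid-induced genes, Nfkbia again among them, 6 were listed higher only (50%, against 24.9% of all genes). Another 1, Tgm2, was listed lower only (8.33%, against 22.6%), at -0.82 on array 4 against -0.40 and -0.32 in the control pairs. Sgk1, Nfkbia and Gadd45g were higher on at least 2 arrays and lower on none, as were 5.56% of all genes. In the control pairs Sgk1 stood at -0.04 and 0.14, and Gadd45g was already higher in Cy5, at 0.38 and 0.20. By limma Sgk1 differed by 0.71 (adjusted p = 0.186) and Gadd45g by 0.42 (adjusted p = 0.277), which did not pass. Fkbp5, Glul, Errfi1, Mt1 and Lcn2 had no listed spot.

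The genes whose ratios lay closest to those of each member were sought among 408 named clones listed on arrays 3 and 5 and not on array 4, by the root mean square difference over 4 pairs. For Cxcl1 these were Pds5a (0.108), Dnajc21 (0.131) and Mecom (0.142). For Cxcl12 they were Csnk1e (0.0923), Xrn2 (0.0930) and Btbd9 (0.0947). For Myc clone 7020 they were Azi2 (0.0280), Marcks (0.0657) and Mad2l2 (0.0996). These distances are the smallest among 408 clones picked for the same arrays of listing, and shared regulation was not tested. The likeness uses the control pairs too, and Pds5a, chosen by it, stood at 0.40 and 0.44 there and at 0.75 on each of arrays 3 and 5.

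Listed collecting duct markers were looked at in the control channels. Of 9 measured, 6 exceeded the channel median in all 4 channels of the control pairs (66.7%, against 41.4% of all named genes). These were Krt7, Krt8, Krt18, Krt19, Epcam and Cldn7, whereas Cdh1, Slc4a1 and Elf3 did not. The count is a description only, since intensities of different clones are not on one scale, and it does not establish identity. The water channel Aqp2 and the sodium channel subunit Scnn1a had no clone with a single symbol here. Leukocyte markers exceeded the median in this way in 0 of 2 genes, endothelial in 0 of 2, proximal tubule in 0 of 1 and fibroblast in 2 of 9. By spots on the treated arrays, where all named genes had 3775 listed higher and 3487 lower, collecting duct markers had 7 higher and 1 lower (55.6% of genes higher only, against 24.9%), fibroblast markers 4 and 3, proximal tubule markers 1 and 1 and endothelial markers 0 and 0. The leukocyte markers Fcer1g and Lyz2 had 3 spots listed lower and 0 higher, and their part in the values of the chemokines was not tested.

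**Figure D5:**
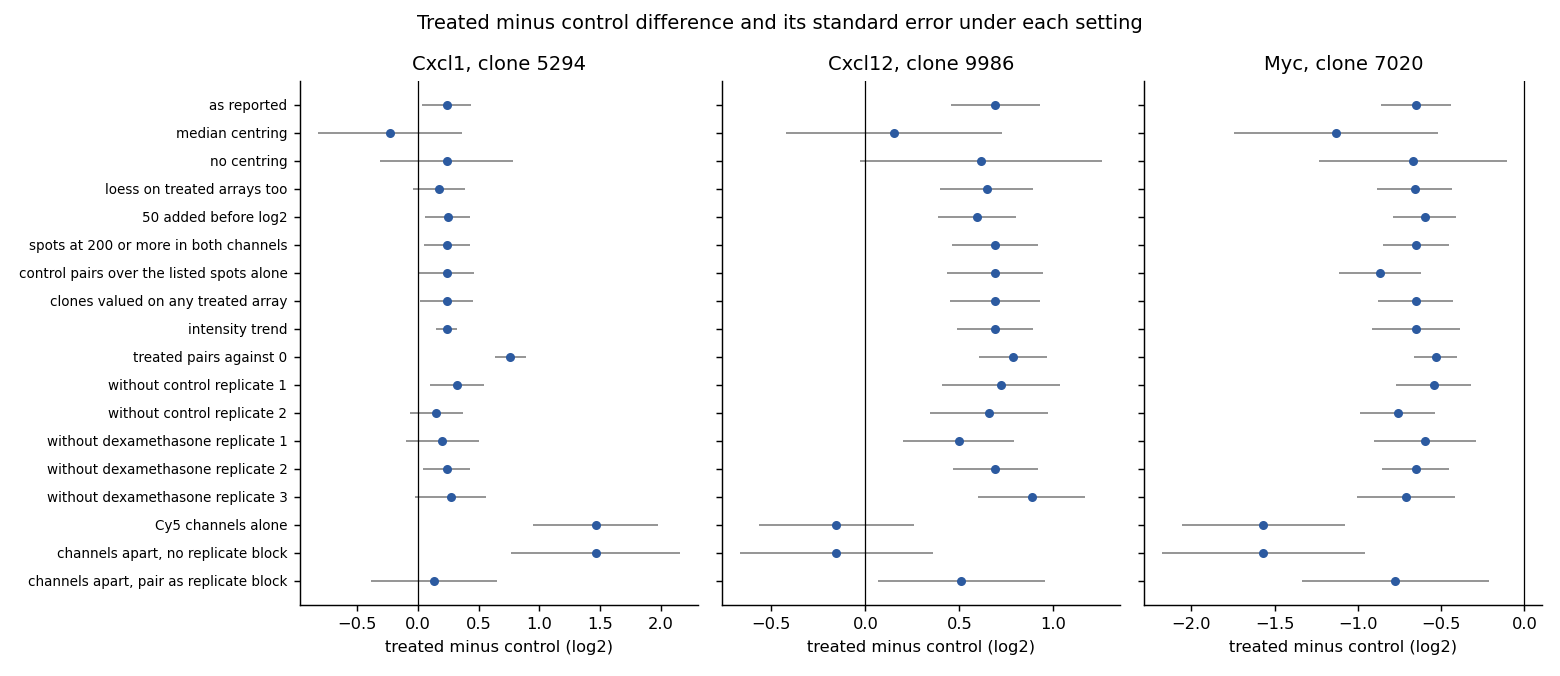
Treated minus control difference (log2) with its standard error for the 3 member clones in the limma fit, under each setting. Cxcl1 crosses 0 with median centring (-0.23) and Cxcl12 with Cy5 channels alone (-0.15). Myc stays below 0, from -1.57 to -0.53, a sign that its listing below the band largely fixes.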

How the data were processed

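The deposited values are mean spot intensities on a linear scale, 1 column per channel, quantified by the authors with Imagene 4.0 per the series' design text. How the deposited intensity was corrected for background or normalised is not given in the sources used here, nor is the spot filter. Log2 Cy5/Cy3 was formed per spot without an added value. Lowess along intensity (span 0.2, in statsmodels 0.14.6) centred the control pairs. Treated arrays were centred on the midpoint of their empty band, located in windows of 150 spots and smoothed with a span of 0.3. Spots of a clone were averaged. The comparison used limma 3.58.1 in R 4.3.3, 3 treated against 2 control pairs, Benjamini-Hochberg over all 2131 clones fitted, with a threshold of 0.05. The same steps were run on simulated data whose noise and listing rule were assumed. That run does not show how p behaves under the real listing rule. Alternatives were other centring, 50 added before log2, a minimum of 200 in both channels, an intensity trend, other sets of clones, channels in place of ratios with and without the pair as a block, and each pair left out. Pairs were joined by the number in the titles, and in all 5 pairs both channels list the same spots. Symbols came from the platform annotation, updated by gene ID. Of the spots 19732 have 1 symbol, 548 several and 10920 none. Named were all member clones, genes of fixed lists listed on at least 2 treated arrays in one direction, and the 3 closest patterns. Other genes named, listed on 1 array or in both directions, were chosen after their values were seen. Members and lists were chosen with earlier results of these data known. Promoters came from RefSeq, for 3 of the 4 genes. Median spot intensity ran from 327 to 1076 over the 10 channels, and the number of arrays limits the precision.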

Additional observations from a re-analysis of the deposited data

How the results depend on the processing

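In limma 0 clones passed on the higher side in every setting run, and the count on the lower side went from 0 to 1 with median centring, with only the clones valued in all 5 pairs and with clones valued on any treated array. Leaving out each pair gave 0 to 1 lower, the 1 without dexamethasone replicate 1, and in each case it was Ube2g2. Among members, the Cxcl1 difference turned to -0.23 with median centring, which also moved the median of all fitted clones from 0.02 to -0.23, and the Cxcl12 difference turned to -0.15 with Cy5 channels alone and to -0.15 with channels apart and no replicate block. With channels apart and the pair as a replicate block the differences were 0.13 for Cxcl1, 0.51 for Cxcl12 and -0.77 for Myc, with adjusted p of 0.950, 0.768 and 0.703, and 0 clones passed. Myc kept its direction in all 17 alternatives, but its treated values are present only because they lay below the band. The listing thus largely fixes that sign. Several alternatives also reuse the same ratios. The Myc difference was -0.65 with clones valued on any treated array, with an intensity trend and without dexamethasone replicate 2, which holds no Myc value. Without any 1 pair the differences ran from 0.15 to 0.32 for Cxcl1, 0.50 to 0.88 for Cxcl12 and -0.76 to -0.55 for Myc, and without dexamethasone replicate 1 or 3 they rest on 1 treated array, assumed to vary like the others. In the control pairs 5 clones were higher and 45 lower in Cy5, with median centring 0 and 0, and with 50 added 8 were higher. Clones listed on at least 2 treated arrays numbered 657 higher and 655 lower, and without 1 of the treated arrays, which leaves fewer arrays, 240 to 318 higher and 248 to 307 lower. Cxcl1, Cxcl12 and Myc are listed on arrays 3 and 5 alone, so their count of 2 arrays needs both. Myc clone 13152 has no treated value to test.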
